A study of Mus musculus with 16 samples.

Results

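The genes described are 10 genes of mitosis: the cyclins Ccnb1 and Ccnf, the kinases Aurkb, Plk1 and Ttk, the kinase partner Birc5, the spindle and cytokinesis genes Kif20b, Nusap1 and Ckap2, and the topoisomerase gene Top2a. They are 10 of 19042 protein-coding genes that could be placed on a window of 5000 bp around a transcription start site (TSS). For each gene the window whose midpoint lay nearest the TSS, and no more than 650 bp from it, was taken with the accessible regions inside that window. All 10 genes had such a window, and the windows hold 15 of the 127646 accessible regions of the series. The genes were chosen by measured values, with earlier results of the same columns known: their differences between fractions or treatments, or their level, had stood out. Those values are given as a description and carry no test.

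The assay was ATAC-seq, which uses a transposase to cut and tag open DNA, here in mouse embryonic stem cells (mESCs) of the genotype FOXD3-iKO grown in L2i. Cells received 4HT, which depletes the pluripotency factor FOXD3, or ethanol (EtOH) as the control, for 24 h. Every group carries the FOXD3-iKO genotype, and the sources used here give neither the recombinase driver nor the number of clones. Cells were sorted by DNA content with DAPI into the fractions G1, ES, LS and G2, named as the labels name them, which gives 8 groups of 2 libraries each. The deposited tables hold 1 pooled column per group, so each value below is the authors' pooled value with no SD, and in bulk cells a lower share of cells with an open site and a less open site per cell cannot be told apart.

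The signal is coverage scaled to library size (CPM). It was taken as averaged over bases with at least 1 read, so that its smallest value in a column is the worth of 1 read. This reading comes from the values themselves, and the levels and implied depths rest on it. A level is the signal as a multiple of the worth of 1 read, and it cannot fall below 1 where any read is present. Values are listed in the order G1, ES, LS, G2. The implied depth was 6.78, 9.75, 11.1 and 8.87 M reads in the 4HT columns and 9.96, 8.38, 8.17 and 11.2 M reads in the EtOH columns, and 1 read was worth between 0.0895 and 0.147. The shallowest column, 4HT in G1, therefore has the highest floor. Promoters of 8 pluripotency genes had levels of 1.25 (Esrrb) to 2.73 (Klf2), with a median of 1.69 against 1.35 over the windows of protein-coding genes. Those of the 6 measured fibroblast genes, as markers of feeder cells, ran from 1.11 (Postn) to 1.65 (Fn1).

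Mitosis is driven by cyclin-dependent kinase activity that cyclins switch on, and by the Aurora, Polo and checkpoint kinases that build the spindle and delay anaphase until chromosomes are attached. Many of these genes are silenced in G1 and switched on late in the cycle through a promoter element called the cell cycle genes homology region (CHR), which is read by complexes that share the MuvB core, often beside CCAAT boxes bound by NF-Y. Mouse embryonic stem cells divide fast and have a short G1.

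The promoters of 6 members are printed because they carry the CHR or CCAAT letters in the open region described below; Ckap2 carries both as well. Each runs from 250 bases before to 50 after the start as RefSeq gives it on GRCm38.p6 (the assembly of mm10), read 5′ to 3′ on the gene's strand. Capitals mark CHR letters (TTTGAA or TTCGAA, on either strand) and CCAAT boxes (CCAAT, on either strand). They stand at chr13:100786437-100786736, minus strand (Ccnb1), chr17:24251360-24251659, minus strand (Ccnf), chr7:122159185-122159484, plus strand (Plk1), chr9:83834439-83834738, plus strand (Ttk), chr19:34922108-34922407, plus strand (Kif20b) and chr11:99024140-99024439, minus strand (Top2a).
Ccnb1: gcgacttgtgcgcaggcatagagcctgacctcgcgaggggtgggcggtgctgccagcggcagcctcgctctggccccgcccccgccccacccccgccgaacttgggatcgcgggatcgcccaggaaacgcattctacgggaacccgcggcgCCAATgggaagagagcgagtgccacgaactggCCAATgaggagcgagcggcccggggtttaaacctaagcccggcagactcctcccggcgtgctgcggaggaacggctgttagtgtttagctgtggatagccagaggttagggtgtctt
Ccnf: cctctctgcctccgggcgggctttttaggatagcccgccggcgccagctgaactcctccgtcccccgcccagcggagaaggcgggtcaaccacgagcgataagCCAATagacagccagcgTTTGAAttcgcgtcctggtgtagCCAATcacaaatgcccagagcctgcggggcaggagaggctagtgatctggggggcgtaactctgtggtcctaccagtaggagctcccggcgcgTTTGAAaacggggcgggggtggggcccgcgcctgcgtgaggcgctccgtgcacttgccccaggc
Plk1: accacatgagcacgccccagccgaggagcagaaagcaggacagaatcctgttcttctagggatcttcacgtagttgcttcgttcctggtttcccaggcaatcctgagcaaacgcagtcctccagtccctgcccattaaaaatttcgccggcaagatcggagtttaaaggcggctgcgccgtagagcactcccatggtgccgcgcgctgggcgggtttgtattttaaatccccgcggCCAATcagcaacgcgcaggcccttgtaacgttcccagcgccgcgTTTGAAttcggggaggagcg
Ttk: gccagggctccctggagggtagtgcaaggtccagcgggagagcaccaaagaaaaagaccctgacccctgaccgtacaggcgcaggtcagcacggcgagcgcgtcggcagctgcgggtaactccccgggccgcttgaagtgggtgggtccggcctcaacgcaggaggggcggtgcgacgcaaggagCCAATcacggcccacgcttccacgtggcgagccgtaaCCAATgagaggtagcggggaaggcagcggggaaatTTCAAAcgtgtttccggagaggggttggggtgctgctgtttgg
Kif20b: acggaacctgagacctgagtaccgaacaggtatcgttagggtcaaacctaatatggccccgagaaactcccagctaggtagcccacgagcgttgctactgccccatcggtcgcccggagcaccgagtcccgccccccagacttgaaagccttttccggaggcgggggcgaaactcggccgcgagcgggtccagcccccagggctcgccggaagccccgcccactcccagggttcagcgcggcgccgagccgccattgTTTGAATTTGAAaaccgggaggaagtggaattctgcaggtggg
Top2a: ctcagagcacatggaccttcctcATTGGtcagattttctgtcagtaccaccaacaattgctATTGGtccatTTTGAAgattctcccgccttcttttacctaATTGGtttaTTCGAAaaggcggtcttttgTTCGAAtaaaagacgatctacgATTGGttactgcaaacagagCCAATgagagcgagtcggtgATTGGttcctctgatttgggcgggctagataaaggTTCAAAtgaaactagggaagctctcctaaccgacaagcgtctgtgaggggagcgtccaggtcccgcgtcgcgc

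CHR letters were found in 6 of the 9 member promoters with a sequence, against 17.6% of 21262 promoters of protein-coding genes and 19.2% of all 32851 promoters in the table. They were present in Ccnf, Plk1, Ttk, Kif20b, Ckap2 and Top2a, and Aurkb had no sequence. CCAAT boxes were found in 6 of 9 (Ccnb1, Ccnf, Plk1, Ttk, Ckap2 and Top2a), against 38.2% of protein-coding promoters. Both motifs together were found in 5 of 9, against 7.11% of protein-coding promoters. In 87 promoters of the other mitotic genes listed further on, CHR letters were found in 58.6%, CCAAT boxes in 63.2% and both in 44.8%. The shares of the members and of the other mitotic genes were not tested against each other.

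The placement of the motifs differed between members. In Ccnb1, a pair of CCAAT boxes started at -99 and -67 bases from the TSS, and CHR letters were not in this window. In Ccnf, CHR letters started at -130 and -14 bases from the TSS and CCAAT boxes at -147 and -107. In Kif20b, a pair of CHR letters lay end to end just after the start, from base 7 to base 18. Top2a had 6 CCAAT boxes and 4 CHR letters upstream of its start, the most of the members. Birc5 and Nusap1 had neither motif in this window. No 2 motifs overlapped. The E2F letters TTTCCCGC, TTTGGCGC, TTTCGCGC and TTTGCCGC were found in 0 of 9 member promoters on either strand, against 2.85% of protein-coding promoters and 11.5% of the 87 promoters of other mitotic genes. The member promoters were rich in CpG, with a median of 25 CG pairs per 300 bases against 13 in protein-coding promoters, from 16 in Top2a to 29 in Ccnb1.

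Each member had 1 accessible region that held its TSS. These 10 regions were 477 to 1086 bp wide (median 863 bp), against a median of 800 bp for the 10437 regions that hold a protein-coding start and 252 bp for all regions. The promoter sequence lay wholly inside that region in 9 of 9 members that have one, whereas 38.0% of protein-coding promoters lay inside an accessible region. As level was among the values by which the genes were chosen, this contrast is only a description. The 5 other regions in the windows were 114 to 299 bp wide and lay beside Ccnb1, Kif20b, Ckap2 and Top2a. Every TSS region had a read in all 8 columns, and so did 1 of the 5 others, the one from -1104 to -991 bp of the Ccnb1 start.

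**Figure D1:**
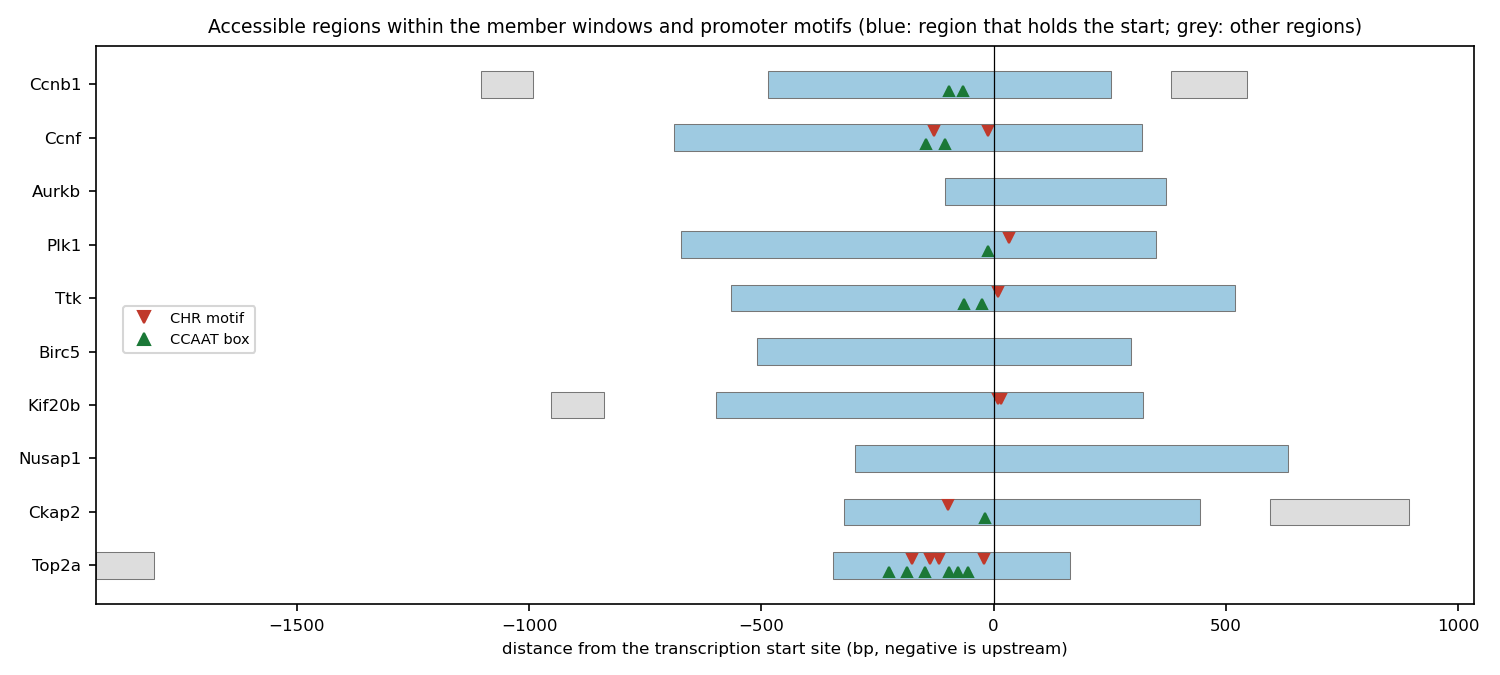
Accessible regions inside the windows of the 10 members, by distance from the TSS in bp (negative is upstream), with the region that holds the start in blue and others in grey. Red and green triangles mark CHR letters and CCAAT boxes from 250 bases before to 50 after the start, all of which lie inside the blue regions; Aurkb had no promoter sequence.

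Before the fractions were compared, the signal was transformed as log2(signal + 0.1) and the columns were brought to a common centre with cyclic loess. As deposited, the median window lay 0.18 above the mean of the columns in 4HT G1 and 0.10 below it in 4HT LS, and differences are given relative to these shifts. Of 38053 distinct windows, 15323 were tested, those with a read in all columns and a mean level of at least 1.3, and all 10 members were among them. An additive limma model of treatment and fraction was used for the 8 columns, so that the treatments stand in as repeats for a fraction and the fractions as repeats for the treatment. Its SEs and p-values measure the spread between pooled columns, not between cultures. As folds are on the log2(signal + 0.1) scale, the changes of these low windows are understated.

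The median member window had a lower centred signal in G1 than in each later fraction. As the signal was read as an average over bases with at least 1 read, it does not give the share of a window that is open. The median log2 difference of the 10 members was 0.17 in ES minus G1 with 10 above 0, in LS minus G1 0.14 with 8 above 0, and in G2 minus G1 0.23 with 8 above 0, while the median of all tested windows was 0.00 in each. No member was called by limma at a Benjamini-Hochberg adjusted p of 0.05, where the background was 0.0196% of windows in ES minus G1, 0.0718% in LS minus G1 and 0.0457% in G2 minus G1. Both later columns lay above both G1 columns in 7 members for ES, against 18.2% of all tested windows, in 5 for LS, against 17.9%, and in 6 for G2, against 17.2%. Averaged over treatments, G1 was the lowest fraction for 8 of 10 members and for 25.5% of all tested windows. Without the 4HT G1 column, the shallowest, the medians were 0.15, 0.22 and 0.27 with 9, 8 and 8 of 10 members above 0. Since the members were chosen with these differences known, none of the counts is evidence for the group.

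**Figure D2:**
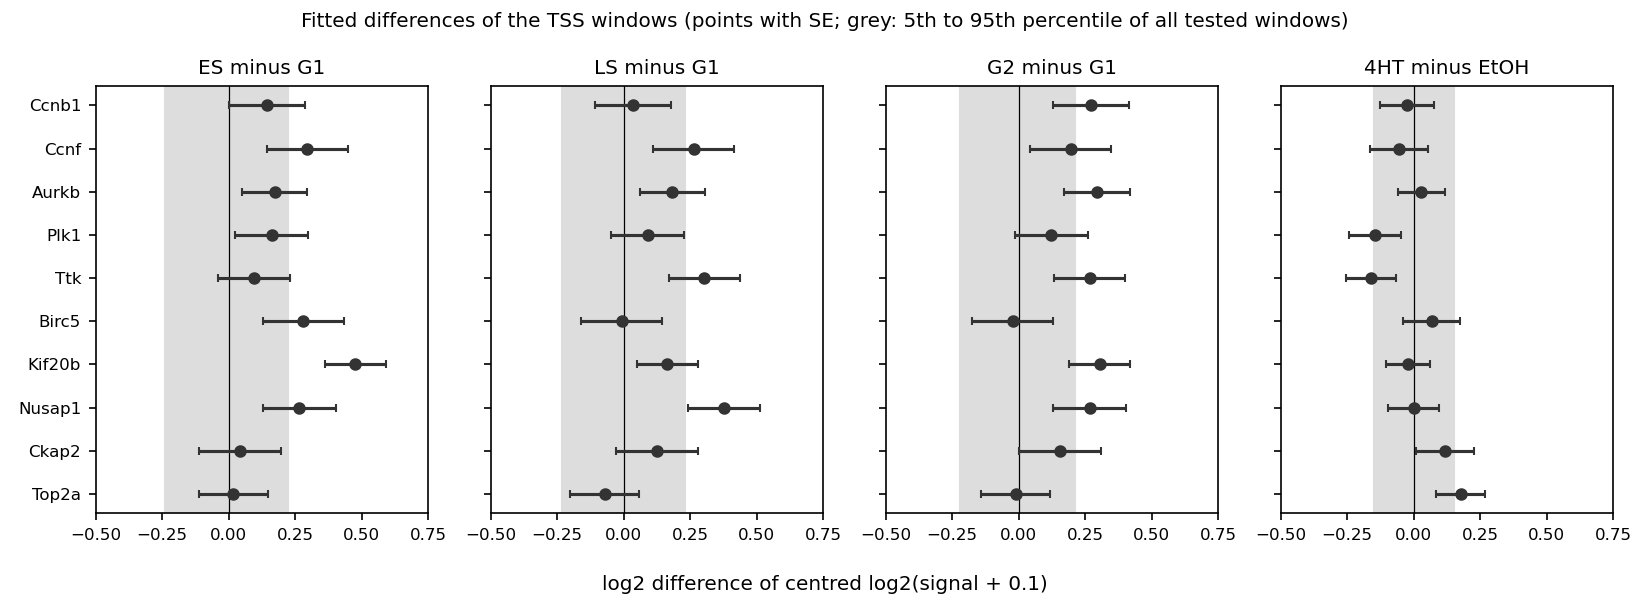
Fitted log2 differences of the 10 members' TSS windows in ES, LS and G2 minus G1 and in 4HT minus EtOH, as points with the SE of the limma fit, beside the 5th to 95th percentile of all 15323 tested windows in grey. The points of ES minus G1 all lie above 0, from 0.02 for Top2a to 0.48 for Kif20b, while those of 4HT minus EtOH lie on both sides of 0.

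The cyclin genes were the first pair. Ccnb1, which encodes cyclin B1, the activator of Cdk1 at mitotic entry, has its window at chromosome 13, 100784221 to 100789220 (mm10). Its signal was 0.235, 0.198, 0.202 and 0.273 in the 4HT columns, against 0.186, 0.257, 0.231 and 0.251 in the EtOH columns. As deposited, the 4HT G1 signal was above those of 4HT ES and LS, and the EtOH G1 signal was the lowest of its treatment. After centring, Ccnb1 was higher in G2 than in G1 by log2 0.27 (SE 0.14), by 0.27 in 4HT and 0.27 in EtOH, the closest match between treatments among the members in that contrast. It was also the member with the largest value in G2 minus LS, 0.24 (SE 0.14).

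Ccnf encodes cyclin F, an F-box protein that targets substrates of a ubiquitin ligase, and its window lies at chromosome 17, 24249060 to 24254059. The signal was 0.238, 0.213, 0.287 and 0.238 in the 4HT columns, against 0.190, 0.324, 0.266 and 0.257 in the EtOH columns. Its highest column was thus LS in 4HT and ES in EtOH. The centred differences from G1 were 0.29 in ES, 0.26 in LS and 0.20 in G2 (SE 0.15 each), and both treatments were above 0 in all of them. With a level of 2.33, Ccnf stood higher than 95.3% of protein-coding windows.

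Aurkb and Birc5 encode Aurora B and survivin, partners in the chromosomal passenger complex, which corrects kinetochore attachments and guides cytokinesis. The Aurkb window (chromosome 11, 69042998 to 69047997) had a signal of 0.147, 0.165, 0.177 and 0.171 in the 4HT columns, against 0.137, 0.159, 0.144 and 0.183 in the EtOH columns. Its 4HT G1 value was exactly the worth of 1 read, the only member value at that floor, so that any lower value there could not be seen. The centred difference in G2 minus G1 was 0.29 (SE 0.12), at 0.31 in 4HT and 0.28 in EtOH. The treatments were less alike in the other fractions. In ES minus G1 Aurkb stood at 0.33 in 4HT and 0.02 in EtOH, and in LS minus G1 at 0.45 in 4HT and -0.09 in EtOH.

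The Birc5 window (chromosome 11, 117846602 to 117851601) had a signal of 0.208, 0.234, 0.241 and 0.216 in the 4HT columns, against 0.212, 0.285, 0.173 and 0.174 in the EtOH columns. Averaged over treatments, Birc5 did not share the low G1 value of Aurkb. It was highest in ES (0.28 above G1, SE 0.15), and LS and G2 differed from G1 by -0.01 and -0.02. The LS values of the treatments pointed opposite ways from G1, 0.36 in 4HT and -0.37 in EtOH.

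Plk1, the Polo-like kinase of centrosome maturation and mitotic entry, and Ttk, the kinase that sets off spindle checkpoint signalling (Mps1), had the lowest fitted values of the members in 4HT minus EtOH. The Plk1 window (chromosome 7, 122157052 to 122162051) had a signal of 0.227, 0.160, 0.154 and 0.167 in the 4HT columns, against 0.138, 0.240, 0.227 and 0.211 in the EtOH columns. In 4HT its G1 column was the highest, and in EtOH its G1 column was the lowest. The centred G2 minus G1 difference was therefore -0.15 in 4HT and 0.39 in EtOH, with a fitted value of 0.12 (SE 0.14). A second window near the start of Plk1, with its midpoint at -148 bp rather than 116 bp, gave 0.12 as well. It overlaps the first window over most of its length, so it is no separate check.

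The Ttk window (chromosome 9, 83832040 to 83837039) had a signal of 0.179, 0.167, 0.174 and 0.183 in the 4HT columns, against 0.154, 0.176, 0.275 and 0.229 in the EtOH columns. The EtOH signals of LS and G2 stood above all other Ttk columns. Relative to G1 the centred difference was 0.09 in ES, 0.30 in LS and 0.27 in G2 (SE 0.13 each), and it was above 0 in both treatments throughout.

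**Figure D3:**
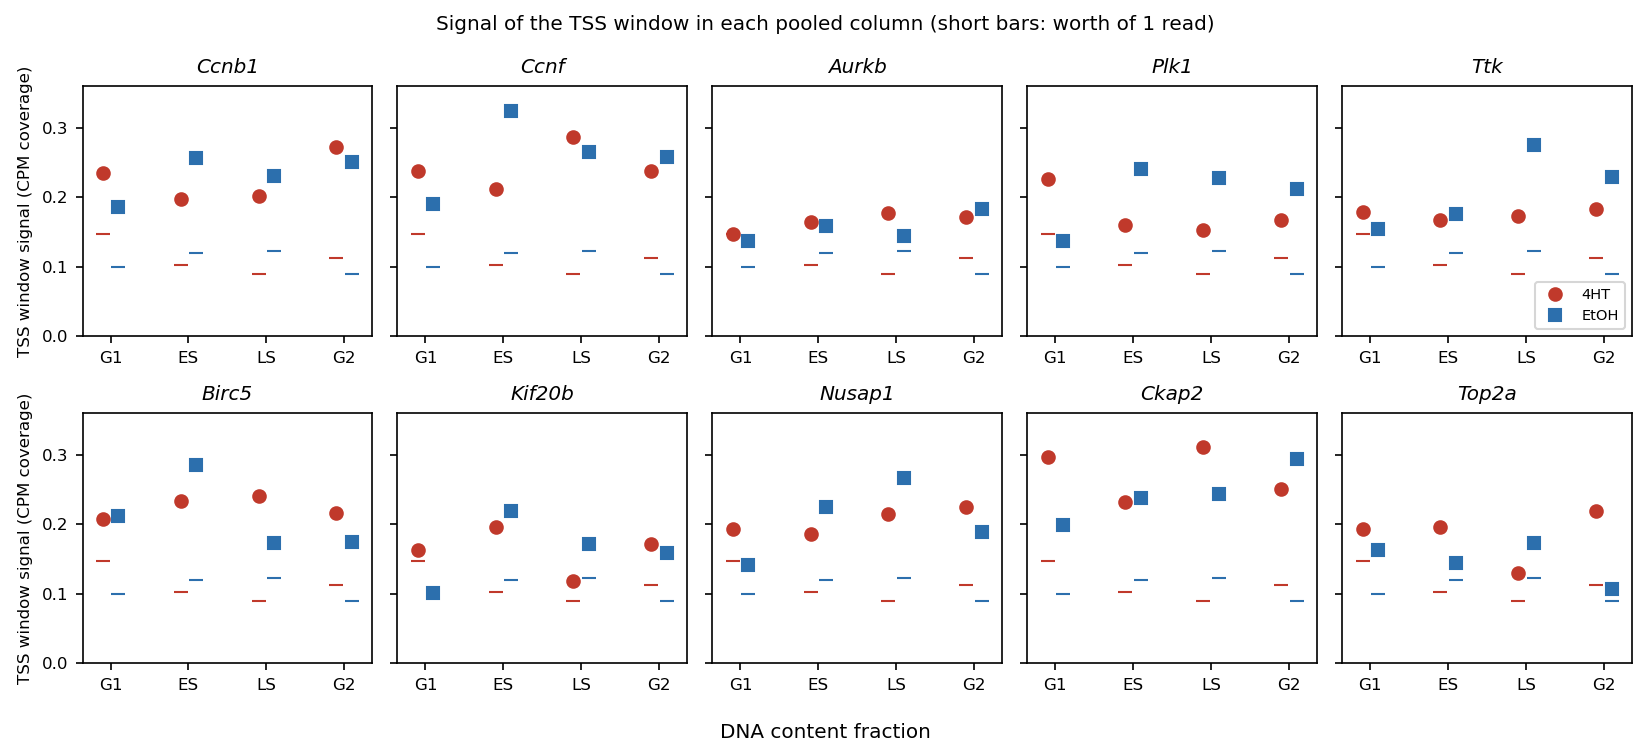
Deposited signal (CPM coverage, y axis) of each member's TSS window in G1, ES, LS and G2, with 4HT as red circles and EtOH as blue squares, 1 pooled column each. Short bars give the worth of 1 read, 0.147 in 4HT G1 and 0.0895 in EtOH G2, and Aurkb in 4HT G1 lies on its bar.

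Kif20b, a kinesin motor of late mitosis and cytokinesis, had the widest range over fractions. Its window (chromosome 19, 34919709 to 34924708) had a signal of 0.162, 0.196, 0.119 and 0.171 in the 4HT columns, against 0.102, 0.219, 0.172 and 0.159 in the EtOH columns. ES was its highest column in both treatments, and EtOH G1 stood at 1.01 times the worth of 1 read. The centred difference in ES minus G1 was 0.48 (SE 0.11), at 0.40 in 4HT and 0.55 in EtOH, and 99.9% of all tested windows lay lower. In G2 minus G1 it was 0.30.

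Nusap1, a microtubule-binding protein that bundles spindle fibres near chromosomes, was lower in G1 than in each later fraction after centring. Its window (chromosome 2, 119615649 to 119620648) had a signal of 0.193, 0.186, 0.215 and 0.225 in the 4HT columns, against 0.141, 0.225, 0.267 and 0.190 in the EtOH columns. After centring, Nusap1 was higher than in G1 by 0.27 in ES, 0.38 in LS and 0.27 in G2 (SE 0.14 each), with both treatments above 0 in each. Its second window, with its midpoint at 321 bp, overlaps the first over most of its length and is no separate check. That window gave 0.26, 0.36 and 0.26.

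Ckap2, a spindle microtubule protein, had the highest level of the members, 2.40. Its window (chromosome 8, 22183470 to 22188469) is shared with the noncoding gene Gm29878, and its signal was 0.297, 0.232, 0.311 and 0.251 in the 4HT columns, against 0.200, 0.238, 0.244 and 0.294 in the EtOH columns. The highest columns were LS in 4HT and G2 in EtOH, which are also the deepest columns of their treatments. The part of depth in this was not tested. The fitted G2 minus G1 difference of 0.16 was close to its SE of 0.15.

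Top2a, whose enzyme untangles sister chromatids, had the smallest range over fractions. Its window (chromosome 11, 99021840 to 99026839) had a signal of 0.193, 0.196, 0.129 and 0.219 in the 4HT columns, against 0.163, 0.144, 0.174 and 0.107 in the EtOH columns. Averaged over treatments it hardly differed between fractions (0.02 in ES, -0.07 in LS and -0.01 in G2 minus G1, SE 0.13 each). Within treatments the G2 minus G1 difference was 0.29 in 4HT and -0.32 in EtOH. Its correlation with the mean of the other members over the 8 centred columns was -0.40, where the other members ranged from 0.19 for Birc5 to 0.74 for Ccnf. These are descriptions of 8 columns that share 1 fit.

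By level, the order from high to low was Ckap2, Ccnf, Ccnb1, Birc5, Nusap1, Ttk, Plk1, Top2a, Aurkb and Kif20b, from 2.40 to 1.48 times the worth of 1 read. Levels move with depth, and the spread of a member over its columns was wider than most steps in this order: Ccnf ran from 1.62 to 3.18 and Kif20b from 1.01 to 1.91. Neighbours in the order thus overlapped. All 10 members lay above the median of 1.35 for protein-coding windows.

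The regions that hold the start were measured from the same reads, so they are no independent check. Of these, 9 had a mean level of at least 2 and were tested among 11010 regions, and Aurkb, at 1.83, was not. In ES minus G1 their median log2 difference was 0.37 with 9 of 9 above 0, in LS minus G1 0.35 with 6 of 9 above 0, and in G2 minus G1 0.32 with 8 of 9 above 0. No member region was called, where the background of all regions was 0% in ES minus G1 and LS minus G1 and 0.0182% in G2 minus G1. Both later columns exceeded both G1 columns in 7 of 9 for ES, against 18% of all tested regions, in 3 for LS, against 17.6%, and in 6 for G2, against 17%. These counts rest on the contrasts that chose the members and are a description.

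Kif20b again had the widest step. The signal of its TSS region was 0.147, 0.344, 0.131 and 0.268 in the 4HT columns, against 0.105, 0.271, 0.321 and 0.214 in the EtOH columns. Both ES columns stood above both G1 columns, and the G1 columns were at or near the worth of 1 read. The centred difference was 0.88 in ES minus G1 (SE 0.34).

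The TSS region of Ccnb1, with its pair of CCAAT boxes, had a signal of 0.365, 0.384, 0.317 and 0.573 in the 4HT columns, against 0.275, 0.549, 0.386 and 0.593 in the EtOH columns. G2 was the highest column in both treatments, and its difference from G1 was 0.64 and from LS 0.67 (SE 0.27 each). The TSS region of Plk1, at 0.178, 0.204, 0.169 and 0.223 in the 4HT columns, against 0.107, 0.340, 0.325 and 0.379 in the EtOH columns, was highest in G2 in both treatments as deposited. The difference in G2 minus G1 was 0.70 for this region. For Nusap1 it was 0.65, for Ttk 0.32, for Ckap2 0.30, for Ccnf 0.27, for Top2a 0.08 and for Birc5 -0.18.

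Between ES, LS and G2 the members did not share a direction. In G2 minus LS the median was 0.03 with 6 of 10 above 0, and no member was called (background 0.0457%). Both G2 columns lay above both LS columns in 2 members, against 17.8% of all tested windows. By treatment the median was -0.04 in 4HT, with 3 of 10 above 0, and 0.11 in EtOH, with 7 of 10 above 0. The highest fraction was ES for 5 members (Ccnf, Plk1, Birc5, Kif20b and Top2a), LS for Ttk and Nusap1, and G2 for Ccnb1, Aurkb and Ckap2.

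After FOXD3 depletion the members lay on both sides of 0. In 4HT minus EtOH over all fractions the median was -0.01 with 5 of 10 above 0, from -0.16 for Ttk (SE 0.09) and -0.14 for Plk1 (SE 0.10) to 0.18 for Top2a (SE 0.09). No member was called, with a background of 0.0131% of windows, and no member had 1 sign in all 4 fractions, against 12.9% of all tested windows. Within fractions the median was 0.01 in G1, -0.06 in ES, -0.01 in LS and -0.10 in G2. The widest single values were 0.52 for Top2a in G2 and 0.49 for Birc5 and 0.44 for Ckap2 in LS. These are differences of 1 column each, with no error.

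**Figure D4:**
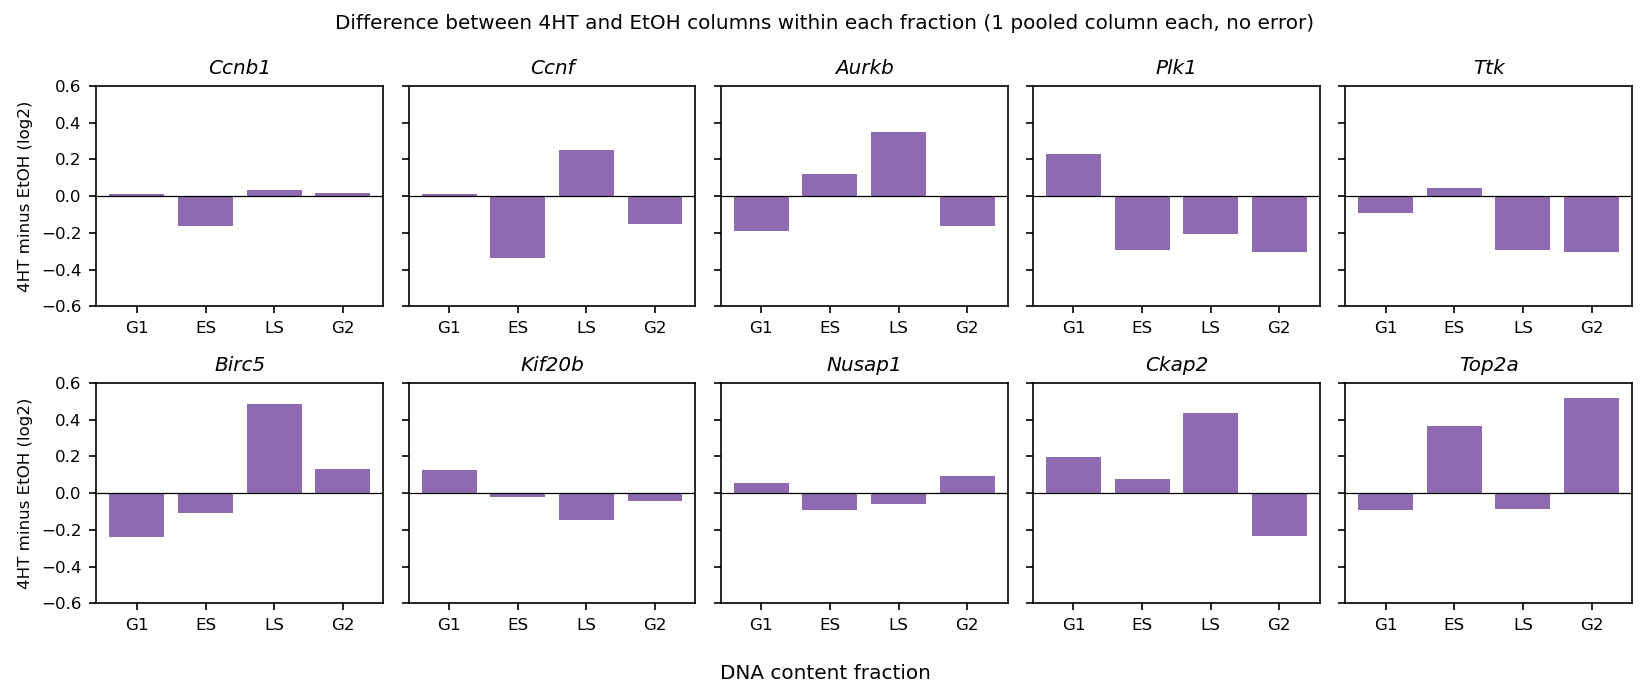
Log2 difference between 4HT and EtOH columns of each member's centred TSS window signal within G1, ES, LS and G2, as bars from 0, with 1 pooled column per treatment and no error. Every member has bars on both sides of 0, and the Ccnb1 bar farthest from it is that of ES, at -0.164.

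Other genes of mitosis, pooled over the lists, had medians near 0 in the same contrasts. Of 92 such genes in 6 lists, 86 had a window and 82 were tested, and none was called in any of the 5 contrasts, where between 0.0131% and 0.0718% of all windows were. The median of the 82 windows was -0.01 in ES minus G1, 0.00 in LS minus G1 and 0.01 in G2 minus G1, with 48.8%, 51.2% and 52.4% of them above 0. Both later columns lay above both G1 columns in 12.2% of them for ES, against 18.2% of all tested windows, in 18.3% for LS, against 17.9%, and in 17.1% for G2, against 17.2%. These lists were also drawn up with earlier results known.

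By role, the medians stayed within 0.04 of 0 in ES, LS and G2 minus G1, except for the anaphase-promoting complex and exit list in LS minus G1, at -0.10 with 5 of 13 windows above 0. Single genes are given for G2 minus G1. Entry kinases, cyclins and phosphatases had a median of 0.02 over 13 windows, from Cdc25c, a phosphatase that activates Cdk1, at -0.08 to Plk4, the kinase of centriole duplication, at 0.25. Genes of the passenger complex, kinetochore and checkpoint had 0.03 over 15 windows, from the kinetochore subunit Spc24 at -0.09 to the centromeric histone gene Cenpa at 0.15. Spindle motors, microtubule binders and cytokinesis genes had 0.03 over 18 windows, from Kif20a, a close relative of Kif20b, at -0.16 to the kinesin Kif15 at 0.25.

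Genes of condensation and cohesion had a median of -0.04 over 13 windows, from the cohesin subunits Smc1a at -0.51 to Smc3 at 0.26. The Smc1a value rests on 1 column: its centred log2 signal was -0.92 in 4HT G1 and between -2.13 and -1.72 in the other 7 columns. The anaphase-promoting complex and exit list had a median of -0.03 over 13 windows, from its inhibitor Fbxo5 (Emi1) at -0.32 to the ubiquitin-conjugating enzyme Ube2s at 0.36. Transcription regulators of mitotic genes had 0.01 over 10 windows, from the NF-Y subunit Nfyb at -0.19 to the Myb factor Mybl2 at 0.13. None of these passed the limma test.

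**Figure D5:**
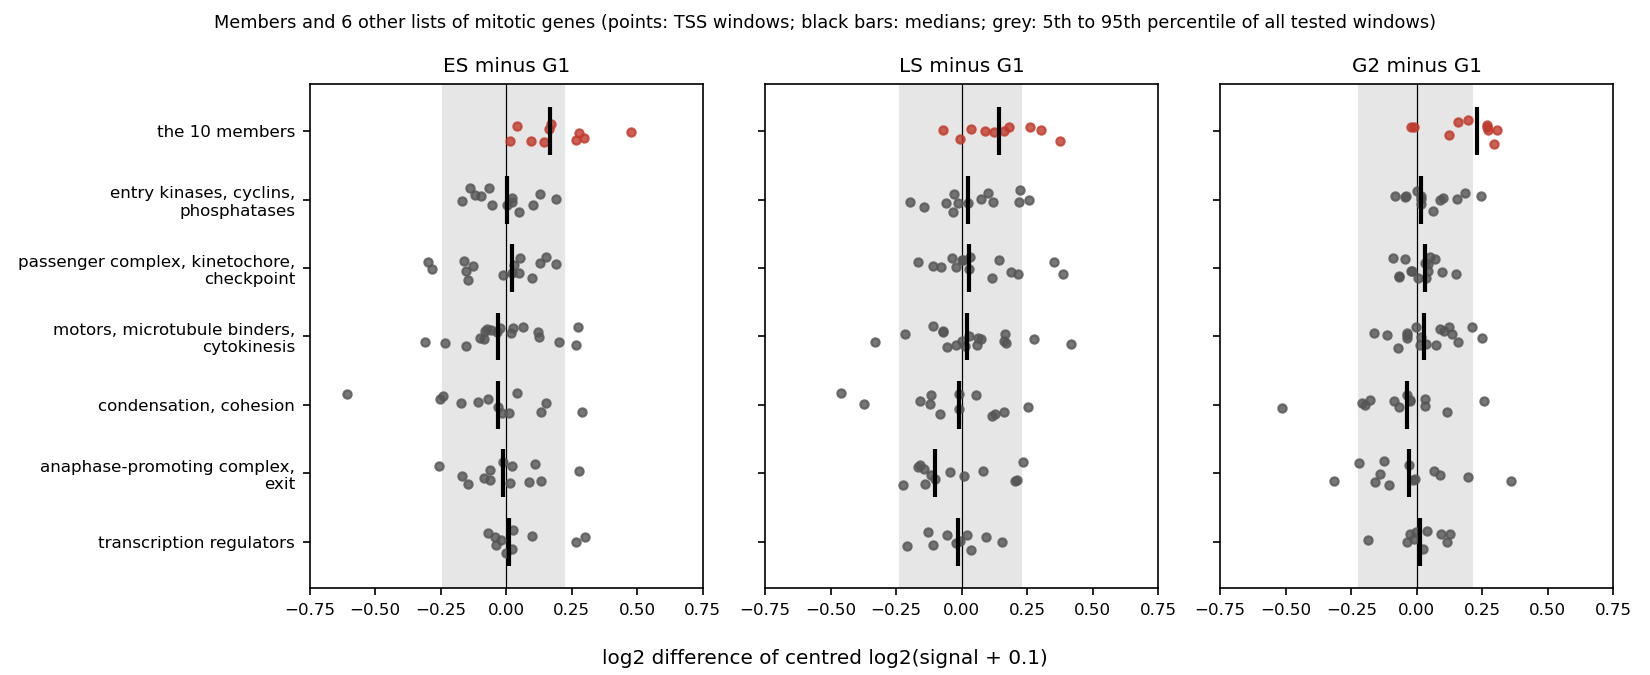
Log2 differences of TSS windows in ES, LS and G2 minus G1 for the 10 members (red) and for 6 lists of other mitotic genes (grey points), with medians as black bars and the 5th to 95th percentile of all tested windows shaded. The members' medians are 0.17, 0.14 and 0.23. The list medians lie between -0.04 and 0.03, except for the anaphase-promoting complex and exit list in LS minus G1, at -0.10. The members were chosen with these differences known, so the contrast with the lists is a description.

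The windows whose pattern over the 8 columns was most like the mean of the members belonged to Sap30 and the noncoding gene 2500002B13Rik (Pearson r 0.97 each), Mtfr1, Pm20d1 and Loxl3 (0.93 each), among 11434 named windows. The windows of Sap30 and 2500002B13Rik share 4894 bp and count as 1 locus. In G2 minus G1 they stood at 0.28 for Sap30, 0.32 for Mtfr1, 0.17 for Pm20d1 and 0.27 for Loxl3. These windows were picked by likeness over the same 8 columns. Values above 0 in G2 minus G1 thus largely follow from the pick. Such a likeness over 8 columns is a description.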

How the data were processed

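Accessibility was measured in 16 libraries, and the authors deposited 8 pooled columns of signal (coverage in CPM) for TSS windows and for accessible regions, per the file headers. The submitters' processing notes name mm10, featureCounts and DESeq2. The aligner and the way libraries were pooled: not given in the sources used here. No column was left unused. Windows were matched to RefSeq starts (GRCm38.p6) with Python 3.11.15 and pandas 2.3.3; Aurkb, which has no promoter sequence in the table, was placed by the 1 gene end that has a window. Log2(signal + 0.1) was centred by cyclic loess and fitted with limma 3.58.1 in R 4.3.3 (intensity trend, robust moderation, 3 residual degrees of freedom, Benjamini-Hochberg over all tested intervals, threshold 0.05). Windows needed a mean level of 1.3 and regions of 2, with a read in every column. The procedure was tested on simulated data. The changes put into those data were larger than every fitted difference of a member window. That test therefore does not show whether differences of the members' size could be called. The members, the gene lists and the alternatives were chosen with earlier results of these data known. Named genes were the members, the highest and lowest of each list in G2 minus G1, and the 5 most similar windows. Labels do not say that libraries came from separate cultures.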

Additional observations from a re-analysis of the deposited data

Results flagged for a closer look

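For 6 members, a difference between fractions pointed one way in 4HT and the other way in EtOH. Each treatment is 1 pooled column per fraction, and these differences between treatments were not tested. The centred log2 difference of Plk1 was -0.10 in 4HT and 0.42 in EtOH in ES minus G1 (4HT less EtOH -0.53) and -0.13 in 4HT and 0.31 in EtOH in LS minus G1 (4HT less EtOH -0.44). Plk1 also stood at -0.15 in 4HT and 0.39 in EtOH in G2 minus G1 (4HT less EtOH -0.54) and -0.02 in 4HT and 0.08 in EtOH in G2 minus LS (4HT less EtOH -0.10). In the Plk1 TSS region, the deposited signal rose from G1 to G2 in both treatments, from 0.178 to 0.223 in 4HT and from 0.107 to 0.379 in EtOH. The opposite directions of the window in G2 minus G1 were thus not seen in that region. The centred log2 difference of Ckap2 was -0.02 in 4HT and 0.10 in EtOH in ES minus G1 (4HT less EtOH -0.12) and -0.06 in 4HT and 0.37 in EtOH in G2 minus G1 (4HT less EtOH -0.43). Ckap2 also stood at -0.30 in 4HT and 0.37 in EtOH in G2 minus LS (4HT less EtOH -0.67). The centred log2 difference of Top2a was 0.25 in 4HT and -0.21 in EtOH in ES minus G1 (4HT less EtOH 0.46) and 0.29 in 4HT and -0.32 in EtOH in G2 minus G1 (4HT less EtOH 0.61). Top2a also stood at 0.36 in 4HT and -0.24 in EtOH in G2 minus LS (4HT less EtOH 0.61). The centred log2 difference of Aurkb was 0.45 in 4HT and -0.09 in EtOH in LS minus G1 (4HT less EtOH 0.54) and -0.15 in 4HT and 0.37 in EtOH in G2 minus LS (4HT less EtOH -0.52). The centred log2 difference of Birc5 was 0.36 in 4HT and -0.37 in EtOH in LS minus G1 (4HT less EtOH 0.73) and 0.16 in 4HT and -0.21 in EtOH in G2 minus G1 (4HT less EtOH 0.37). Birc5 also stood at -0.19 in 4HT and 0.16 in EtOH in G2 minus LS (4HT less EtOH -0.35). The centred log2 difference of Ccnf was -0.27 in 4HT and 0.13 in EtOH in G2 minus LS (4HT less EtOH -0.40).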

How the results depend on the processing

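The members' medians in ES, LS and G2 minus G1 stayed above 0 under every alternative that was run and could change them. These were other pseudocounts, no level filter, a mean level of at least 2 (4 members left), no centring, median centring and single treatments. The medians also did so without the 4HT G1 column, a fit added after seeing the data. Fits without a whole fraction return the same differences between the remaining fractions in this balanced model, so they are no check on these medians. Single treatments were taken only after centring, and the signs in 4HT depended on it. As deposited in 4HT, the ES signal was below G1 in Ccnb1, Ccnf, Plk1, Ttk, Nusap1 and Ckap2, and above it in the other members. Without centring, the ES minus G1 median in 4HT alone would thus lie below 0. The deposited 4HT LS signal was below G1 in Ccnb1, Plk1, Ttk, Kif20b and Top2a, and above it in the other members. The size of the medians depended on the setting, from main values of 0.17, 0.14 and 0.23. With a pseudocount of 0.5 they were 0.07, 0.06 and 0.10, and as deposited 0.10, 0.09 and 0.17, with 8 rather than 10 members above 0 in ES minus G1. In LS minus G1 the median was 0.08 in EtOH alone and with a mean level of at least 2. Measured on accessible regions, it was 0.37 in ES minus G1 and 0.35 in LS minus G1. Without the 4HT G1 column 9, 8 and 8 of 10 members were above 0 in ES, LS and G2 minus G1. No alternative called a member. Of 390 member values, 369 moved by less than 1 SE and 18 changed sign. The 390 include differences between fractions in fits without another fraction. Those values cannot move, so the counts overstate how stable the members were. Most sign changes were in 4HT minus EtOH, whose median itself crossed 0 (0.03 without the ES fraction and with a mean level of at least 2, 0.01 as deposited). Windows called over the whole table depended more on the setting. For 4HT minus EtOH (2) they became 0 with no level filter, as deposited and without the G2 fraction, 1 with a mean level of at least 2, without the G1 fraction and without the 4HT G1 column, and 4 without the ES fraction. For ES minus G1 (3) they became 1 with no filter and with a mean level of at least 2, and 0 as deposited. For LS minus G1 (11) they became 4 with no filter, with a mean level of at least 2 and without the 4HT G1 column, 7 without the G2 fraction and 0 as deposited. For G2 minus G1 (7) they became 4 as deposited. In the last 100 bases before the start and the 50 after it, 5 of 9 promoters held CHR letters and 5 of 9 a CCAAT box. No paired analysis was possible because the pooled columns carry no replicate numbers, and leaving out single libraries was not run for the same reason. The causes of these changes were not tested. Depth limits what can be seen below the worth of 1 read.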
